A study of Mus musculus with 58 samples.

Results

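The neuronal surface proteins that join axons to their targets and pre- to postsynaptic membranes were examined as 38 named genes in mouse striatum. The list took in the neurexins Nrxn2 and Nrxn3, the neuroligins Nlgn1 and Nlgn3, Lrrtm1 to Lrrtm4, Tenm1 to Tenm4, Adgrl1 to Adgrl3, Flrt1 to Flrt3, Cntnap1, Cntnap2 and Cntnap4, Cntn1, Cntn4, Cntn5 and Cntn6, Ntng1 and Ntng2, Celsr1 to Celsr3, Slitrk1, Slitrk3 and Slitrk5, Cadm1 and Cadm2, Il1rapl1, Ptprd and Ptprs. The genes were chosen by name and not by a threshold on any measured value, but with earlier results of these data known. All 38 were found among the 54532 genes of the RNA-seq tables and the 18411 genes of the lysate RNA and ribosome footprint tables. Mutant mice of the 3g line carried heterozygous CRISPR/Cas9 mutations in Taok2, Sez6l2 and Mvp (3g del/+), and mutant mice of the 16p11.2 line had 1 copy of the whole 16p11.2 region, which holds those genes (16p11.2 del/+). Each mutant group had wild-type (wt) littermates of its own line. The labels give strain B6129S throughout. The methods of the study name a different strain for the males that sired the 3g zygotes, and describe the 16p11.2 del/+ mice as purchased. RNA-seq was made from 4 males and 4 females of each line and genotype (32 libraries). Lysate RNA and ribosome footprints came from the same striatal lysates of other male mice, 3 wt and 3 del/+ in the 3g line and 4 wt and 3 del/+ in the 16p11.2 line (13 animals). The labels give no age, and the methods of the study describe adult littermates.

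Synaptic adhesion proteins work in pairs across the cleft. Neurexins on the axon bind neuroligins and LRRTM proteins on the dendrite, latrophilins (the Adgrl genes) bind teneurins and FLRT proteins, and the receptor phosphatases PTPRD and PTPRS bind SLITRK proteins and IL1RAPL1. Contactins and CASPR proteins (the Cntnap genes) act along the axon, where CNTN1 and CASPR hold myelin loops beside the node of Ranvier, while netrin-Gs mark sets of incoming axons, CELSR proteins are atypical cadherins of axon tract formation and CADM proteins are immunoglobulin adhesion molecules. Striatal projection neurons are inhibitory and receive excitatory axons from cortex and thalamus, whose cell bodies lie outside the striatum. In the mouse genome (GRCm38.p6) the 38 genes lay on 18 chromosomes and were long, with a median span of 232 kb against 24.8 kb for 14962 protein-coding genes, and 23 of the 38 (60.5%, against 15.1%) spanned over 100 kb. Slitrk1 was the shortest at 4.25 kb (chromosome 14, 108909988 to 108914239). Tenm4 was the only one on chromosome 7, which holds the deleted region, and lay 30.7 Mb from Taok2.

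RNA-seq libraries held 11711099 to 65529807 counts, lysate RNA libraries 15102576 to 19122488 and footprint libraries 342052 to 678130. Counts of the 38 genes made up 0.416% to 0.527%, 0.312% to 0.436% and 0.423% to 0.784% of these totals, and every gene was detected in every library. Depth differed by genotype in the 3g line. RNA-seq totals were 24332636 to 36821127 in del/+ females against 42289823 to 65529807 in wt females. In males they were 11711099 to 39716416 against 39301819 to 55912622. Footprint totals were 527917 to 678130 in 3g del/+ against 342052 to 422918 in wt animals. Sez6l2 was at 189 to 225 CPM (counts scaled by normalized library size) in 3g del/+ males against 274 to 336 in wt males. Taok2 was at 83.2 to 94.9 CPM in 16p11.2 del/+ males against 153 to 183. Taok2 overlapped between the genotypes in 3g males (156 to 197 CPM in del/+, 176 to 182 in wt). The RNA-seq libraries were placed on a scale where the lines' medians are 0 and 1. On it, 3g wt male 17 lay near the 16p11.2 line (0.888, the other 15 of its line at -0.081 to 0.165). Conversely, 16p11.2 del/+ male 4 lay near the 3g line (0.202, the other 15 at 0.844 to 1.21). Taok2 in that library was at 89.1 CPM, beside 83.2 to 94.9 CPM in the other 16p11.2 del/+ males. Ddx3y, from the Y chromosome, was at 38.5 CPM in the library labelled 16p11.2 del/+ female 1 and at 0 in its 3 companions. Eif2s3y and Kdm5d, also from the Y chromosome, were at 29.1 and 24.9 CPM in that library and at 0 in its companions. Xist ranged from 0.462 to 916 CPM in that group, from 602 to 831 in 16p11.2 wt females and up to 0.238 in wt males. The library was kept as labelled. The summed level of 11 markers of striatal projection neurons was 4805 to 8897 CPM in RNA-seq and 1631 to 2550 CPM in lysate RNA.

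Both sides of the synapse were represented in striatal RNA. Among presynaptic receptors, Nrxn2 had a median of 237 CPM over the 32 RNA-seq libraries (195 to 299) and Nrxn3 of 260 CPM (193 to 297). Their dendritic partners Nlgn1 and Nlgn3 were at 75.1 CPM (63.4 to 85.3) and 56.2 CPM (50.8 to 63.6). The receptor phosphatases Ptprd and Ptprs were at 178 CPM (127 to 237) and 368 CPM (295 to 429). Adgrl1, a latrophilin, was at 644 CPM (521 to 826), and its teneurin and FLRT partners ranged from 34.8 CPM for Tenm1 (17.1 to 51.9) and 36.5 CPM for Flrt1 (32.9 to 41.2) to 160 CPM for Tenm4 (104 to 214). Along the axon, Cntn1 was at 324 CPM (263 to 455) and Cntnap1, which encodes CASPR, at 469 CPM (346 to 585). The other contactins were at 9.87 CPM for Cntn5, 15.9 for Cntn6 and 35.3 for Cntn4. CPM values were not divided by transcript length, so they order libraries for a gene and not genes against each other. In bulk tissue, fewer cells of a type and less RNA per cell cannot be told apart.

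**Figure D1:**
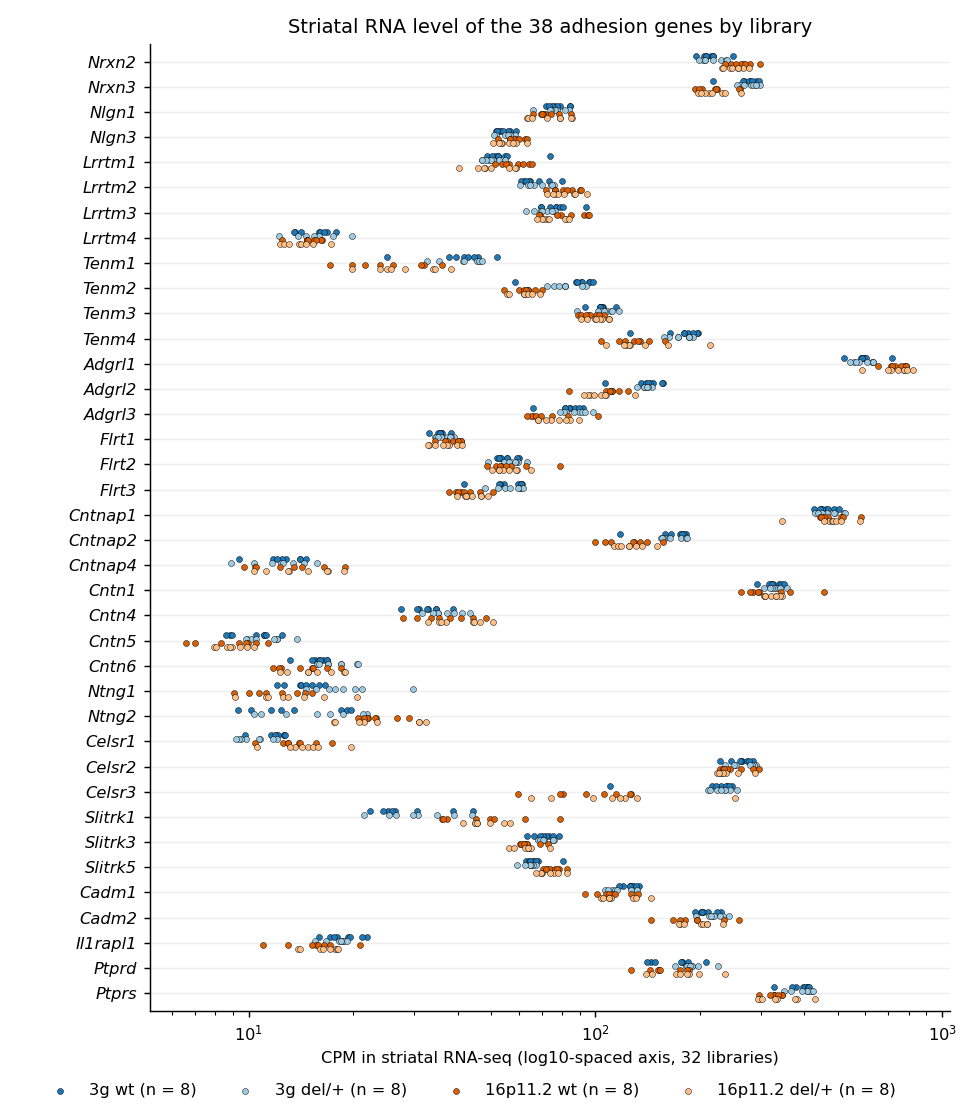
RNA level of the 38 genes in striatal RNA-seq, in CPM on a log10-spaced axis, with 1 point for each of the 32 libraries and colors for line and genotype. Genotypes of a line overlap for every gene, whereas Celsr3, Tenm1 and Tenm2 sit lower and Slitrk1 and Ntng2 sit higher in most 16p11.2 libraries, the main exceptions for Celsr3 being 3g wt male 17 (110 CPM) and 16p11.2 del/+ male 4 (253 CPM).

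Ribosome footprints were set against RNA of the same lysate, which asks how many ribosome-protected fragments were recovered for each gene per unit of its RNA. In wt mice, 20 of the 38 genes were called in the 3g line, 9 higher and 11 lower in footprints, against 44.3% of 13963 genes tested (20.6% higher, 23.7% lower) (edgeR quasi-likelihood test, Benjamini-Hochberg adjusted p under 0.05). In the 16p11.2 line 23 were called, 10 higher and 13 lower, against 46.6% of 13682 genes (21.4% higher, 25.2% lower). These tests held no term for the animal. The same 9 genes (23.7%) were higher and the same 9 (23.7%) lower in both lines, against 2013 higher and 2697 lower of the 13443 genes tested in both (20.1% lower), and none was called in opposite directions. A further 7 were called in 1 line only and 13 in neither. The log2 ratios of the lines had the same sign for 35 of 38 genes, with Pearson's r of 0.946 and Spearman's rho of 0.926 across the 38 genes and r of 0.827 across all genes tested, given as a description because genes are not independent and each line has its own animals but 1 protocol.

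Ptprs, the receptor phosphatase that binds SLITRK proteins and proteoglycans, had the highest mean log2 ratio of footprints to lysate RNA over the wt groups of both lines, although in the 16p11.2 line the median ratio per animal was higher for Celsr1 (8.34 against 6.69 in wt, 9.15 against 8.03 in del/+). The footprint CPM of Ptprs was 4.97, 5.17 and 7.07 times its lysate CPM in the 3 wt animals of the 3g line and 4.72, 4.77 and 3.57 times in the 3g del/+ animals. In the 16p11.2 line the ratios were 6.49, 6.90, 6.08 and 10.8 in wt and 19.3, 6.06 and 8.03 in del/+. All 13 animals were above 3, with the highest values, 19.3 and 10.8, in 1 del/+ and 1 wt animal of the 16p11.2 line, and the test in wt gave a log2 ratio of 2.55 ± 0.20 (SE) in the 3g line (adjusted p = 8.66e-07, edgeR) and 3.01 ± 0.18 in the 16p11.2 line (adjusted p = 5.83e-11). Ptprd, the other receptor phosphatase of the list, had ratios of 0.610 to 0.963 and was called in neither line. Ptprs lies on chromosome 17 (56412426 to 56476561, GRCm38.p6).

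The 3 CELSR genes formed the only family with all members higher in both lines. Celsr3 had ratios of 2.25, 2.26 and 2.70 in 3g wt, 2.28, 3.03 and 2.403 in 3g del/+, 2.16, 2.43, 2.14 and 2.66 in 16p11.2 wt and 2.62, 2.33 and 2.93 in 16p11.2 del/+ animals. All of its 13 values fell between 2.14 and 3.03, the genotypes overlapped in both lines, and the log2 ratio in wt was 1.30 ± 0.18 in the 3g line and 1.29 ± 0.15 in the 16p11.2 line (adjusted p = 8.47e-05 and 6.46e-07, edgeR). Celsr2 ranged from 1.74 to 2.50 (log2 ratio 1.06 ± 0.18 and 1.19 ± 0.16). Celsr1 ranged from 2.46 to 10.8 (1.95 ± 0.35 and 2.96 ± 0.38), on only 6 to 15 footprints and 22 to 86 lysate counts per animal.

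The other genes higher in both lines were Cntn4, Adgrl1, Cntnap1, Nrxn2 and Tenm4. Cntn4, a contactin, had ratios of 1.75 to 4.31 over the 13 animals, and its log2 ratio was 0.87 ± 0.19 in the 3g line and 1.91 ± 0.20 in the 16p11.2 line. Adgrl1 ranged from 1.57 to 2.42 (0.86 ± 0.18 and 1.23 ± 0.14) and Cntnap1 from 1.37 to 2.23 (1.06 ± 0.17 and 0.82 ± 0.15). Nrxn2 ranged from 1.37 to 2.08 (0.78 ± 0.18 and 0.96 ± 0.13) and Tenm4 from 1.01 to 1.68 (0.50 ± 0.18 and 0.38 ± 0.14). All of these genes were above 1 in 13 of 13 animals. With the animal as a block, which the shared lysates justify, Tenm4 was no longer called in the 3g line and 19 genes remained there. The call of Tenm4 was also lost in both lines with no filter on low counts, in the 3g line without the wt animal with the lowest or the one with the highest Ptprs ratio, and in the 16p11.2 line without any 1 of 3 of its 4 wt animals.

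The 9 genes lower in both lines were Nlgn1, Nlgn3, Lrrtm2, Lrrtm4, Il1rapl1, Cadm2, Flrt2, Adgrl3 and Cntn5. Nlgn1, a neuroligin of excitatory synapses, had footprint to lysate ratios of 0.172, 0.224 and 0.191 in 3g wt and 0.266, 0.408 and 0.373 in 3g del/+. In the 16p11.2 line they were 0.180, 0.184, 0.242 and 0.221 in wt and 0.166, 0.253 and 0.226 in del/+. Every animal was under 0.41, the 3g genotypes did not overlap and the 16p11.2 genotypes did, and the log2 ratio in wt was -2.32 ± 0.20 in the 3g line and -2.18 ± 0.17 in the 16p11.2 line (adjusted p = 2.39e-06 and 3.46e-09, edgeR). Nlgn3 had ratios of 0.321 to 0.846 over the 13 animals (-0.60 ± 0.19 and -0.66 ± 0.22), and its call was less firm. It was lost in the 3g line without the wt animal with the lowest or the one with the highest Ptprs ratio, and in the 16p11.2 line with DESeq2 and without either of the 2 wt animals lowest in Nlgn3. Nlgn2, the neuroligin of inhibitory synapses and not one of the 38, was higher in both lines (0.67 and 0.74).

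Of the LRRTM genes, Lrrtm2 (log2 ratio -1.65 ± 0.35 in the 3g line and -1.27 ± 0.17 in the 16p11.2 line) and Lrrtm4 (-1.84 ± 0.37 and -1.15 ± 0.23) were lower in both lines, and Lrrtm1 was called in neither (0.49 ± 0.23 and 0.29 ± 0.29). Lrrtm4 rested on 1 to 34 footprints per animal, and without the 3g wt animal with the highest Ptprs ratio the call of Lrrtm2 in the 3g line was lost (adjusted p = 0.0624, edgeR) and the log2 ratio of Lrrtm4 there moved to -2.78. Without the 3g wt animal highest in Lrrtm2 (0.646, the others at 0.102 and 0.208) the log2 ratio of Lrrtm2 was -2.66. Il1rapl1, an X-linked partner of PTPRD, had ratios of 0.172 to 0.622 on 4 to 18 footprints (-1.55 ± 0.25 and -1.17 ± 0.22). Cadm2 had ratios of 0.214 to 0.488 on 54 to 253 footprints per animal (-1.43 ± 0.20 and -1.28 ± 0.14). Flrt2 ranged from 0.229 to 0.584 (-1.26 ± 0.21 and -1.42 ± 0.19) and Adgrl3 from 0.406 to 0.877 (-0.70 ± 0.18 and -0.58 ± 0.16), the call of Adgrl3 in the 16p11.2 line being lost without the wt animal with the highest Ptprs ratio. Cntn5 ranged from 0.0348 to 0.575 on 1 to 23 footprints (-2.05 ± 0.27 and -2.52 ± 0.30).

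**Figure D2:**
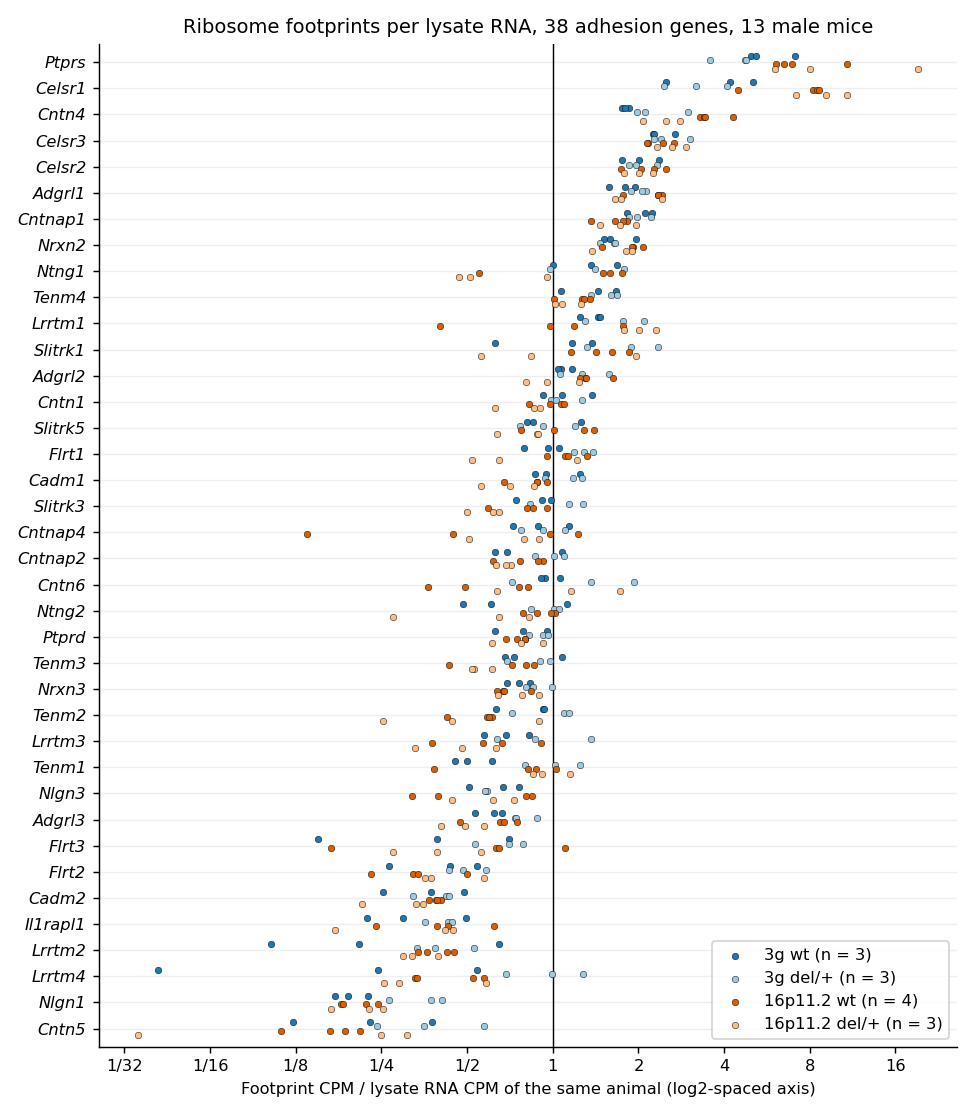
Footprint CPM divided by lysate RNA CPM of the same animal for the 38 genes, with 1 point for each of 13 male mice on a log2-spaced axis and genes ordered by the mean log2 ratio of the wt groups of both lines. Ptprs, Celsr1, Cntn4, Celsr3, Celsr2, Adgrl1, Cntnap1, Nrxn2 and Tenm4 lie above 1 in all 13 animals, and Nlgn1 and Cntn5 lie lowest.

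Some families were split in this measure, while all 3 CELSR genes were higher and both listed neuroligins lower in both lines. The contactins spanned mean log2 ratios of -2.28 (Cntn5) to 1.39 (Cntn4), the latrophilins -0.64 (Adgrl3) to 1.04 (Adgrl1), and the neurexins -0.40 (Nrxn3) to 0.87 (Nrxn2). The netrin-G and SLITRK genes had no member called in both lines. The 5 genes called in the 16p11.2 line only were Adgrl2 (higher, log2 ratio 0.52 ± 0.14) and Tenm2, Tenm3, Nrxn3 and Lrrtm3 (lower, -0.77 to -0.43), and the 2 called in the 3g line only were Tenm1 (-0.92 ± 0.19) and Flrt3 (-1.22 ± 0.32, on 4 to 27 footprints over the 13 animals). Leaving out single wt animals ended the calls of Tenm3, Nrxn3, Lrrtm3 and Flrt3. Whether these differ between the lines was not tested. Among 54 other adhesion genes, 21 were higher and 9 lower in both lines, with the third member of the LAR phosphatase family, Ptprf, at 2.35 and 3.39. With the animal as a block, 26 genes were called in the 16p11.2 line, Ptprd, Flrt3 and Slitrk1 being added.

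The lysate RNA and the RNA-seq libraries gave these genes different levels, and the comparison was made after the ratios were known. With the 3 kinds of wt male library scaled together, the 9 genes that were lower per lysate RNA had RNA-seq levels of 0.114 to 0.357 times their lysate level in the 3g line and 0.0979 to 0.451 times in the 16p11.2 line, and none of the 9 was above 1. Across all genes 47.4% and 49.9% were above 1, among genes with a footprint to lysate ratio of 1 or less 30.8% and 36.4% were, and of the 38 genes 7 and 10 were. Both ratios have the lysate level as their denominator. Nlgn1, for example, was at 68.1 CPM in RNA-seq, 308 CPM in lysate RNA and 59.2 CPM in footprints of the 3g line. Its footprint level was therefore 0.870 times its RNA-seq level in the 3g line and 1.099 times in the 16p11.2 line. Over RNA-seq in place of lysate RNA, 7 of the 9 lower genes had footprint ratios above 1 in each line, with a range of 0.863 to 2.23 and 0.909 to 2.49. Of all 38 genes 32 and 30 were above 1 on that scale, against 7364 of 15228 and 7136 of 14901 genes, and against 2134 of 7767 and 2444 of 7625 genes with a footprint to lysate ratio of 1 or less.

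Of the 9 genes higher per lysate RNA, 9 were above 1 against RNA-seq in the 3g line (1.20 to 3.72) and 8 in the 16p11.2 line, where Cntnap1 was at 0.776. Among all genes with a footprint to lysate ratio above 1, 5230 of 7461 and 4692 of 7276 were. Ptprs was at 3.72 and 4.69, Celsr1 at 2.45 and 2.59, Nrxn2 at 2.61 and 2.48 and Cntn4 at 2.48 and 3.41. Without 3g wt male 17 the 3g counts were the same, 9 of 9 and 7 of 9 above 1. RNA-seq came from other mice and was aligned to another genome build by other tools, so this is a description with no test, and the part that the 2 preparations play in the lower ratios was not tested.

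Genotype was then compared in each line and sex, the question the study was built on. In 3g males 0 of the 38 genes were called, as were 0% of 19081 genes, and in 3g females 0 were called against 0.00526% of genes. The male test thus did not call the mutated Sez6l2 either, although its groups did not overlap (189 to 225 CPM in del/+, 274 to 336 in wt). A count of 0 there does not show that the 38 genes were unchanged. At an unadjusted p under 0.05, edgeR gave 3 and 6 of the 38 (background 1.44% and 11%), and DESeq2 called 0 in males and 2 in females. The log2 fold changes of del/+ over wt had a median of 0.02 in males (-0.23 to 0.43) and 0.03 in females (-0.35 to 0.43), beside medians over all genes of -0.0001 and -0.00115. The median standard error of a gene was 0.10 in males and 0.05 in females.

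The nearest to a call were Celsr1 and Tenm2 in 3g females. There every del/+ library held fewer counts than every wt library, and the part of depth in these values was not tested. Celsr1 was at 11.9, 12.6, 12.2 and 11.6 CPM in wt females and 9.79, 9.51, 9.38 and 9.19 CPM in 3g del/+ females. The groups did not overlap, which held for 3 of the 38 genes (background 5.66%), and the log2 fold change was -0.35 ± 0.06 with an adjusted p of 0.204 (edgeR). Tenm2, a teneurin that binds latrophilins, was at 90.9, 95.6, 96.7 and 87.6 CPM in wt and 81.7, 75.7, 78.6 and 81.8 CPM in del/+ females (-0.22 ± 0.04, adjusted p = 0.204). Both passed the threshold with DESeq2 (adjusted p = 0.00394 for Celsr1 and 0.00656 for Tenm2), with no filter on low counts (0.0105 and 0.00806) and without 3g wt female 39 (0.0384 for both). In 3g males Celsr1 overlapped between the genotypes (9.76 to 12.7 CPM in wt, 10.7 to 12.1 in del/+), and the difference between the sexes in its effect was -0.30 ± 0.12 with an adjusted p of 0.901.

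Ntng1, which encodes netrin-G1, had the same fitted change in both sexes of the 3g line. It was at 12.6, 14.1, 12.02 and 14.7 CPM in wt males and 15.7, 18.7, 17.02 and 20.2 CPM in del/+ males. The male groups did not overlap (1 of the 38 genes, background 1.95%), with a log2 fold change of 0.43 ± 0.11 and an adjusted p of 0.974 (edgeR). In females wt mice were at 15.2, 16.5, 14.1 and 15.9 CPM and del/+ mice at 21.2, 29.8, 17.7 and 14.6 CPM, so that del/+ held both the highest values and 1 value inside the wt range. Ntng1 also moved with cortical marker genes, whose summed level was 271 to 492 CPM in 3g del/+ males, 193 to 450 CPM in wt males without male 17, and 301.4 to 782 CPM in del/+ against 267 to 706 CPM in wt females. The part of those markers in the Ntng1 values was not tested. In 3g males Ptprd was at 141 to 177 CPM in wt and 169 to 190 CPM in del/+, and Cntn5 at 8.61 to 11.23 and 9.79 to 12.1 CPM, both with an adjusted p of 0.974.

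In the 16p11.2 line 0 of the 38 genes were called in males, against 0.106% of 17957 genes, and 0 in females, against 0.144% of 18067 genes. At an unadjusted p under 0.05, edgeR gave 2 genes in males and 1 in females (background 5.82% and 4.47%), and DESeq2 called 0 in both. The median log2 fold change of the 38 was 0.02 in males (-0.33 to 0.62) and -0.01 in females (-0.19 to 0.26), with median standard errors of 0.13 and 0.09. Lrrtm1, an LRRTM gene, was at 64.2, 61.9, 65.7 and 55.1 CPM in wt males and 49.9, 58.4, 47.7 and 40.3 CPM in del/+ males (-0.33 ± 0.12, adjusted p = 0.742). Ptprd was at 127, 154, 144 and 175 CPM in wt and 171, 175, 184 and 237 CPM in del/+ males (0.36 ± 0.13, adjusted p = 0.742). Both pairs of groups overlapped by 1 or more libraries.

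The largest fold change in 16p11.2 males, 0.62 ± 0.32 for Celsr3 (adjusted p = 0.742, edgeR), rested on 1 library. Celsr3 was at 78.8, 114, 126 and 59.6 CPM in wt males and at 98.4, 118, 112 and 253 CPM in del/+ males, the last being del/+ male 4, the library that lay near the 3g line. In 16p11.2 females, Adgrl2 had the smallest unadjusted p (log2 fold change -0.19 ± 0.07, adjusted p = 0.998, edgeR). It was at 110, 112, 107 and 124 CPM in wt and 108, 96.5, 98.7 and 95.1 CPM in del/+. The first del/+ value is del/+ female 1, the library with Y chromosome RNA, and the other del/+ values lay below all wt values. Leaving out any single library, del/+ female 1 and del/+ male 4 included, left 0 of the 38 called in both sexes.

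The genotype effect did not differ detectably between sexes or lines for any of the 38. In the genotype by sex interaction 0 were called in the 3g line (0% of genes) and 0 in the 16p11.2 line (0%), with 1 and 0 at an unadjusted p under 0.05 by edgeR (background 2.69% and 4.33%) and 0 by DESeq2 in both. In the genotype by line interaction 0 were called in males (0.077% of genes) and 0 in females (0.128%), with 0 and 2 at an unadjusted p under 0.05 (background 1.72% and 6.82%). Celsr1 was the nearest, since in 16p11.2 females it was at 12.5 to 15.6 CPM in wt and 13.6 to 15.8 CPM in del/+, and its effect differed by 0.45 ± 0.10 from that in 3g females (adjusted p = 0.207 by edgeR and 0.0303 by DESeq2).

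**Figure D3:**
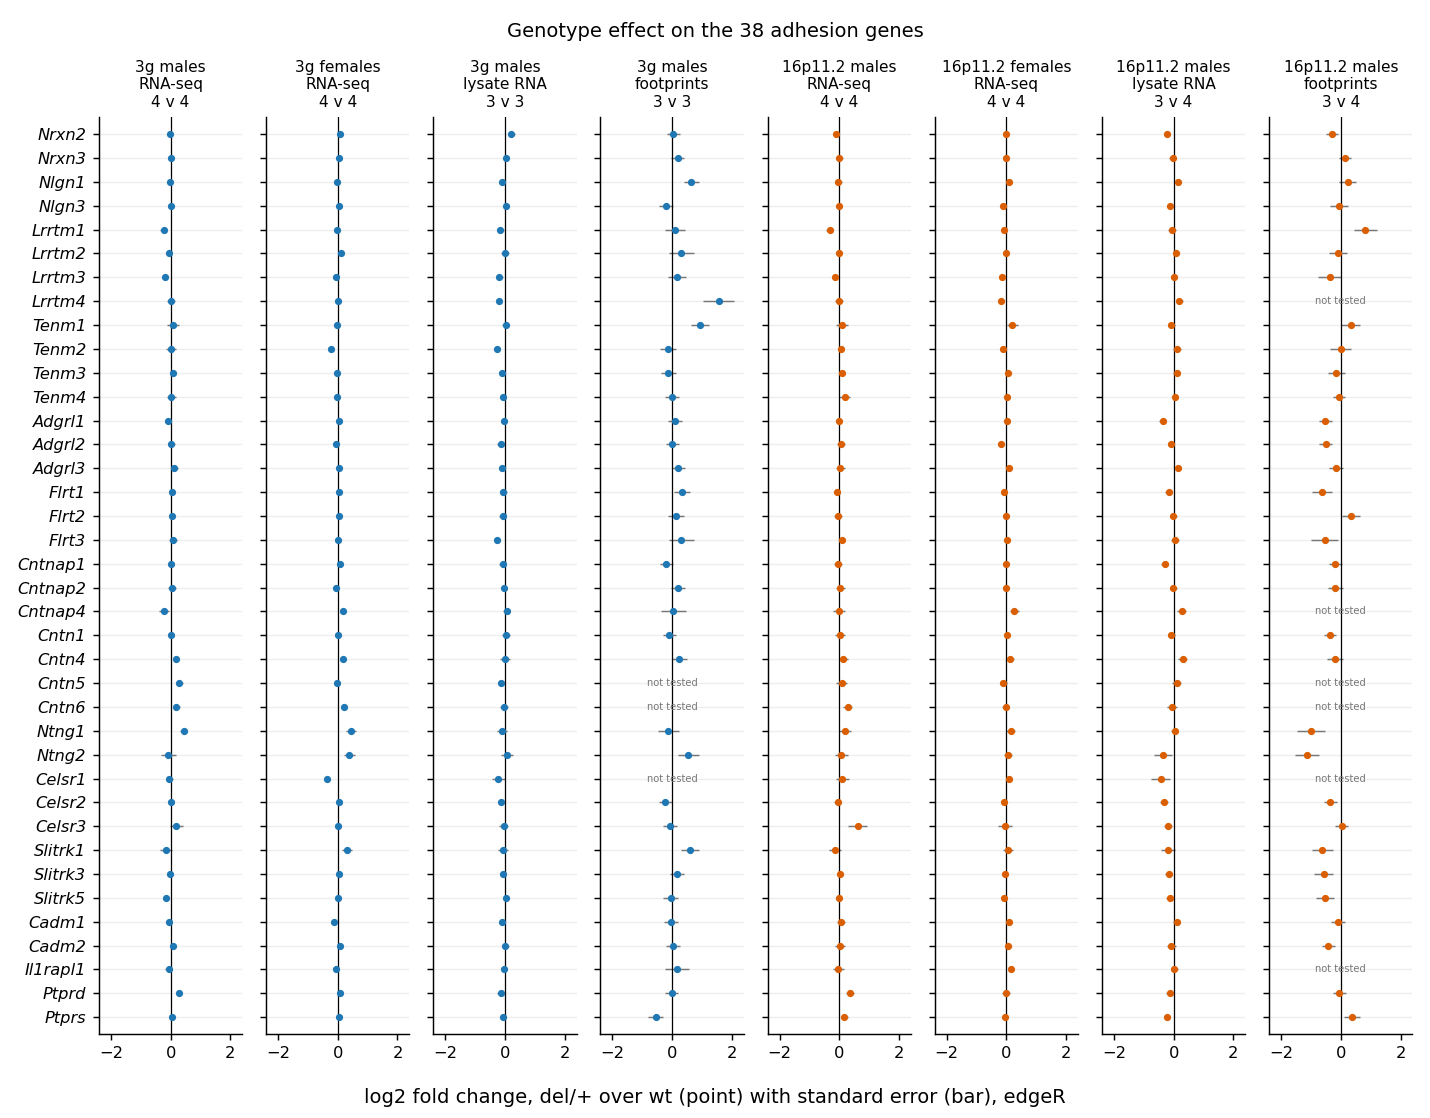
Log2 fold change of del/+ over wt for the 38 genes in 8 comparisons, as points with standard errors from edgeR, with the number of del/+ and wt libraries above each panel. RNA-seq and lysate RNA panels stay close to 0 with Celsr3 in 16p11.2 males (0.62) as the largest change, and the footprint panels are wider, with Lrrtm4 at 1.56 in the 3g line.

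Genotype was also compared in the lysates. In lysate RNA 0 of the 38 genes were called in the 3g line (0.0209% of 14378 genes) and 0 in the 16p11.2 line (0.133% of 14330), and 2 and 4 had an unadjusted p under 0.05 by edgeR (background 4.92% and 4.41%), with 0 called by DESeq2. Adgrl1 was at 268, 240, 252 and 292 CPM in 16p11.2 wt and 199, 196 and 213 CPM in del/+ lysates, which did not overlap (3 of the 38 genes, background 5.71%), with a log2 fold change of -0.37 ± 0.11 and an adjusted p of 0.951. In RNA-seq of 16p11.2 males the log2 fold change of Adgrl1 was -0.01 ± 0.11. In lysate RNA of the 3g line, Flrt3 and Tenm2 had the smallest unadjusted p, with log2 fold changes of -0.27 ± 0.11 and -0.26 ± 0.11 (adjusted p = 0.94 for both), followed by Lrrtm4 at -0.19 ± 0.10 (0.94). In RNA-seq of 3g males the log2 fold changes were 0.07 ± 0.14 for Flrt3, 0.02 ± 0.16 for Tenm2 and 0.01 ± 0.13 for Lrrtm4.

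Footprints of 35 genes passed the filter on low counts in the 3g line and 32 in the 16p11.2 line. Those left out were Cntn5, Cntn6 and Celsr1 in both, and Lrrtm4, Cntnap4 and Il1rapl1 in the 16p11.2 line. None of those tested was called (backgrounds of 0.0132% and 0.117% of genes), and 4 and 5 had an unadjusted p under 0.05 by edgeR (background 7.97% and 6.15%), with 0 called by DESeq2. Median standard errors were 0.25 and 0.28 on the log2 scale, wider than in RNA-seq. The median log2 fold change of the genes tested was 0.08 in the 3g line and -0.19 in the 16p11.2 line, beside medians over all genes of -0.01 and -0.01. The summed footprint level of 5 endothelial markers was 173 to 199 CPM in 3g del/+ against 219 to 668 CPM in wt animals, and 350.1 to 437 CPM in 16p11.2 del/+ against 198 to 339 CPM in wt animals, with no overlap in either line. The part of these markers in the medians was not tested.

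Lrrtm4, Tenm1 and Nlgn1 had the smallest unadjusted p in 3g footprints. Lrrtm4, which encodes a dendritic partner of neurexins, had 1, 6 and 13 footprints in the wt animals and 34, 25 and 30 in the del/+ animals, while its lysate RNA was at 39.1, 39.9 and 39.3 CPM in wt and 35.97, 34.4 and 33.2 CPM in del/+. These raw footprint counts are not scaled, and the del/+ libraries were deeper (527917 to 678130 counts against 342052 to 422918 in wt). The ratio of footprint to lysate CPM of Lrrtm4 was 0.0410 to 0.540 in wt and 0.684 to 1.28 in del/+. Scaled for depth, its footprints were higher in all del/+ animals (1.56 ± 0.51 on the log2 scale, edgeR adjusted p = 0.414). Without the wt animal that had 13 footprints the difference was 2.48 (adjusted p = 0.116, edgeR). Lrrtm4 was called with no filter on low counts (adjusted p = 0.0285, edgeR). Tenm1 was at 47.9, 36.9 and 40.2 CPM in wt and 93.0, 91.5 and 54.8 CPM in del/+ footprints (0.93 ± 0.30, adjusted p = 0.414). Nlgn1 was at 47.9, 66.9 and 59.2 CPM in wt and 72.2, 100 and 97.4 CPM in del/+ footprints (0.64 ± 0.26, adjusted p = 0.528). The groups did not overlap for any of these, as for 5 of the 35 genes against 13.3% of all genes.

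As translational efficiency, the interaction of genotype and library kind, 0 of the 38 genes were called in the 3g line (0% of 15137 genes) and 0 in the 16p11.2 line (0.00664% of 15071), with 3 in each at an unadjusted p under 0.05 by edgeR (background 7.67% and 6.24%). In the 3g line the values were 1.77 ± 0.44 for Lrrtm4 (adjusted p = 0.490, or 2.71 without the same wt animal), 0.94 ± 0.30 for Tenm1 (0.506) and 0.79 ± 0.27 for Nlgn1 (0.509), and DESeq2 called Nlgn1 (adjusted p = 0.0417). In the 16p11.2 line they were -1.13 ± 0.45 for Ntng1 (0.764), -0.50 ± 0.22 for Adgrl2 (0.784) and 0.78 ± 0.38 for Lrrtm1 (0.799), with 4 to 23 footprints of Ntng1 and 3 to 32 of Lrrtm1 per animal over both lines. In the same line Ntng2 footprints were at 53.1, 31.8, 55.2 and 38.5 CPM in wt and 15.6, 27.9 and 16.5 CPM in del/+ animals (5 to 36 footprints over both lines), without overlap, as for 2 of the 32 genes against 6.69% of all genes. Its lysate RNA was at 45.7, 23.8, 37.05 and 27.7 CPM in wt and 37.5, 28.4 and 12.97 CPM in del/+. The footprint difference of Ntng2 was -1.13 ± 0.41 with an adjusted p of 0.626 (edgeR). The summed level of 7 cortical neuron markers was 453 to 1060 CPM in wt and 525 to 679 CPM in del/+ footprints, and 288 to 711 CPM in wt and 239 to 492 CPM in del/+ lysate RNA, and its part in the Ntng2 values was not tested.

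Between the wt mice of the lines, many of the 38 differed in RNA-seq of females. There 23 were called, 8 higher and 15 lower in the 16p11.2 line, against 59.9% of 19013 genes (29.8% higher, 30.1% lower), so their share (60.5%) was close to the background. The labels give no preparation batch, and a batch or a strain background that follows the line could not be told apart from it. Cell type markers also differed between these groups. The summed level in 3g and 16p11.2 wt females was 5572 to 7281 and 9664 to 13085 CPM for 6 oligodendrocyte markers, 154 to 164 and 73.5 to 100.2 CPM for 5 endothelial markers, and 267 to 706 and 975 to 1432 CPM for 7 cortical neuron markers, with no overlap in any of them, and their part in the line differences was not tested. Celsr3 fell most, from 239, 247, 230 and 217 CPM in the 3g line to 106, 93.6, 80.8 and 127 CPM in the 16p11.2 line (log2 fold change -1.21 ± 0.12, adjusted p = 1.9e-05, edgeR). Teneurins fell with it, Tenm1 from 39.6 to 45.7 CPM to 17.1 to 31.98 CPM (-0.90 ± 0.15), Tenm4 from 164 to 198 CPM to 104 to 134 CPM (-0.59 ± 0.08) and Tenm2 from 87.6 to 96.7 CPM to 60.2 to 70.0 CPM (-0.52 ± 0.06). None of these groups overlapped. Of the 38 genes, 13 were lower and 6 higher without overlap, against 27.9% and 27.3% of all genes tested. Tenm3 was not called (-0.14, adjusted p = 0.0660, edgeR).

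Among the genes higher in the 16p11.2 line, Ntng2, which encodes netrin-G2, rose from 13.5, 11.6, 12.4 and 19.2 CPM to 26.8, 22.1, 23.3 and 23.1 CPM (0.73 ± 0.14). Its relative Ntng1 fell from 14.1 to 16.5 CPM to 9.07 to 12.5 CPM (-0.54 ± 0.10). Slitrk1 rose from 24.4 to 38.9 CPM to 36.2 to 62.8 CPM with overlap between the lines (0.68 ± 0.19, adjusted p = 0.0105, edgeR), Adgrl1 from 583 to 598 CPM to 759 to 786 CPM (0.38 ± 0.05), Lrrtm2 by 0.32 ± 0.06 and Nrxn2 by 0.30 ± 0.05. Among the 54 other adhesion genes, 21 were higher and 13 lower.

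In wt males 0 of the 38 were called (0.0162% of 18561 genes). At an unadjusted p under 0.05, edgeR gave 11 (background 36.1%), and DESeq2 called 5. Leaving out 3g wt male 17 gave 15 called genes, among them Celsr3 at -1.33 (adjusted p = 0.00182, edgeR). Over all genes, leaving out single libraries gave 1 to 8835 called, and the alternatives that kept every library gave 3 to 3563. All 23 genes called in females had the same sign in males, the smallest change being -0.00168 for Ntng1. In wt lysate RNA of other males 0 were called (0.0139% of 14417 genes). At an unadjusted p under 0.05, edgeR gave 9 (background 10.8%), and DESeq2 called Celsr2. Over all genes, the alternatives that kept every library called 2 to 162 in these lysates. There 14 of the 23 genes had the sign seen in females and 9 the opposite one, and r across the 38 was 0.0963, as a description. Celsr3 in lysate RNA was at 53.3, 58.6 and 66.0 CPM in the 3g line and 56.7, 41.0, 45.6 and 42.9 CPM in the 16p11.2 line (-0.34, adjusted p = 0.342), and Slitrk1 had the opposite sign (-0.29). None of the 23 line differences called in RNA-seq of females was called in the lysates by edgeR.

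**Figure D4:**
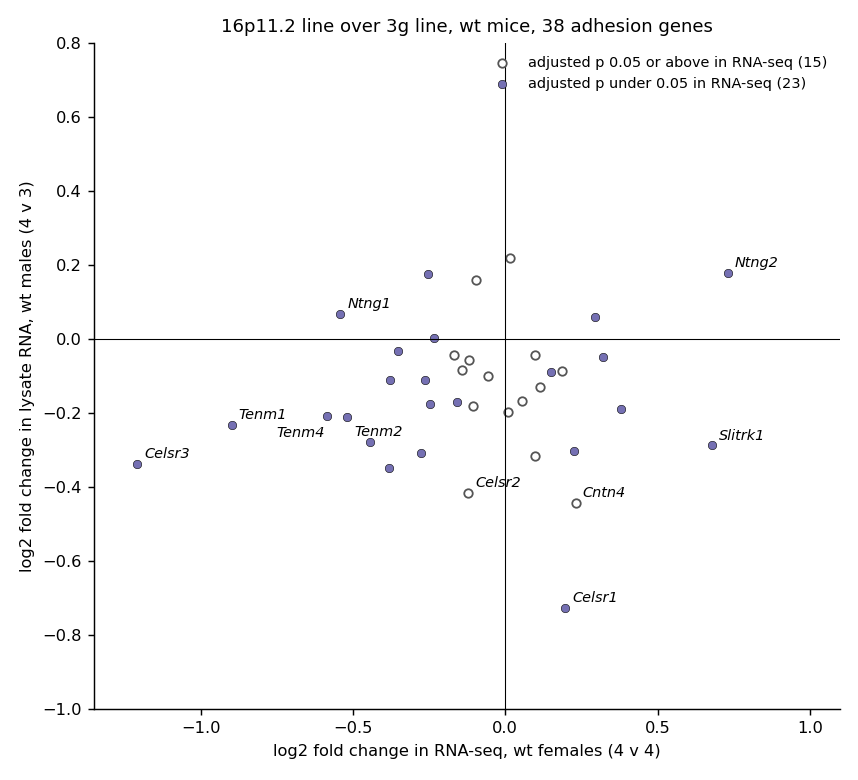
Log2 fold change of the 16p11.2 line over the 3g line in wt mice, with RNA-seq of females on the x axis and lysate RNA of males on the y axis, 1 point per gene and filled points for the 23 genes called in RNA-seq. Celsr3 (-1.21) and Ntng2 (0.73) are the extremes in RNA-seq, and lysate values lie between -0.73 (Celsr1) and 0.22.

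Within a line, libraries also differed in cortical neuron markers. Whether these follow the amount of cortex in a striatal dissection was not tested. The summed level of 7 markers was 193 to 782 CPM in 15 libraries of the 3g line, 934 to 1567 CPM in 15 of the 16p11.2 line and 239 to 711 CPM in the 13 lysates, with the libraries that stood apart (1083 CPM in 3g wt male 17 and 949 CPM in 16p11.2 del/+ male 4) left out. This relation was looked for after the data were seen, over 114 relations of 38 genes in 3 sets, with 100000 resamples in each permutation test and Benjamini-Hochberg adjustment. Both genotypes and, in RNA-seq, both sexes entered.

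Slitrk1, a postsynaptic partner of the receptor phosphatases, was the one gene that passed in every set. Its r with the cortical sum was 0.924 in the 3g line (rho 0.896), 0.872 in the 16p11.2 line (rho 0.857) and 0.748 in the lysates (rho 0.769), with adjusted permutation p of 0.000285, 0.000285 and 0.0305 for r and 0.00266, 0.00285 and 0.0236 for rho. Without the 2 libraries farthest from the median sum, r was 0.871, 0.804 and 0.747. Within the lysates of each line r was 0.840 in 6 animals (exact permutation p = 0.0639) and 0.800 in 7 (exact permutation p = 0.0123). The level of Slitrk1 ranged from 21.5 to 44.0 CPM in those 3g libraries, a coefficient of variation of 22.6%, while its relative Slitrk5 stayed at 59.5 to 68.2 CPM (3.34%).

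Ntng2 followed the same markers in the 3g line (r 0.956, rho 0.961, and r 0.960 without the 2 farthest libraries, adjusted permutation p = 0.000285) and in the lysates (r 0.915, rho 0.890, and r 0.857 without them). It did not pass in the 16p11.2 line (r 0.557, rho 0.350, adjusted permutation p = 0.115). Ntng1 had r of 0.715 and 0.733 in the RNA-seq sets and 0.643 in the lysates, the last with an adjusted permutation p of 0.0801. Lrrtm3 moved the other way in RNA-seq, with r of -0.652 and -0.814, but not in the lysates (0.179), and in the 3g line its r was -0.462 without the 2 farthest libraries.

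Other genes passed in 1 set only. In the 3g line Nrxn2, Celsr2, Ptprd and Ptprs rose with the sum (r 0.783, 0.817, 0.811 and 0.651) and Tenm2, Flrt3 and Cntnap2 fell (-0.690, -0.660 and -0.699). Flrt2 and Cntnap4 rose in the 16p11.2 line (0.861 and 0.760), and in the lysates Nlgn1 and Tenm3 fell (-0.698 and -0.761). The adjusted permutation p of these r values lay between 0.000456 and 0.0485, but that of rho did not pass for Cntnap2 (rho -0.636, 0.0602), Nlgn1 (rho -0.571, 0.169) or Tenm3 (rho -0.643, 0.0915). Within the 3g lysates r was -0.646 for Nlgn1 and -0.537 for Tenm3 (exact permutation p = 0.194 and 0.303). Within the 16p11.2 lysates r was -0.956 and -0.878 (exact permutation p = 0.00476 and 0.0127). The share of all genes that would pass the same test was not computed. The part of cortical tissue in any genotype or line value of these genes was not tested.

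**Figure D5:**
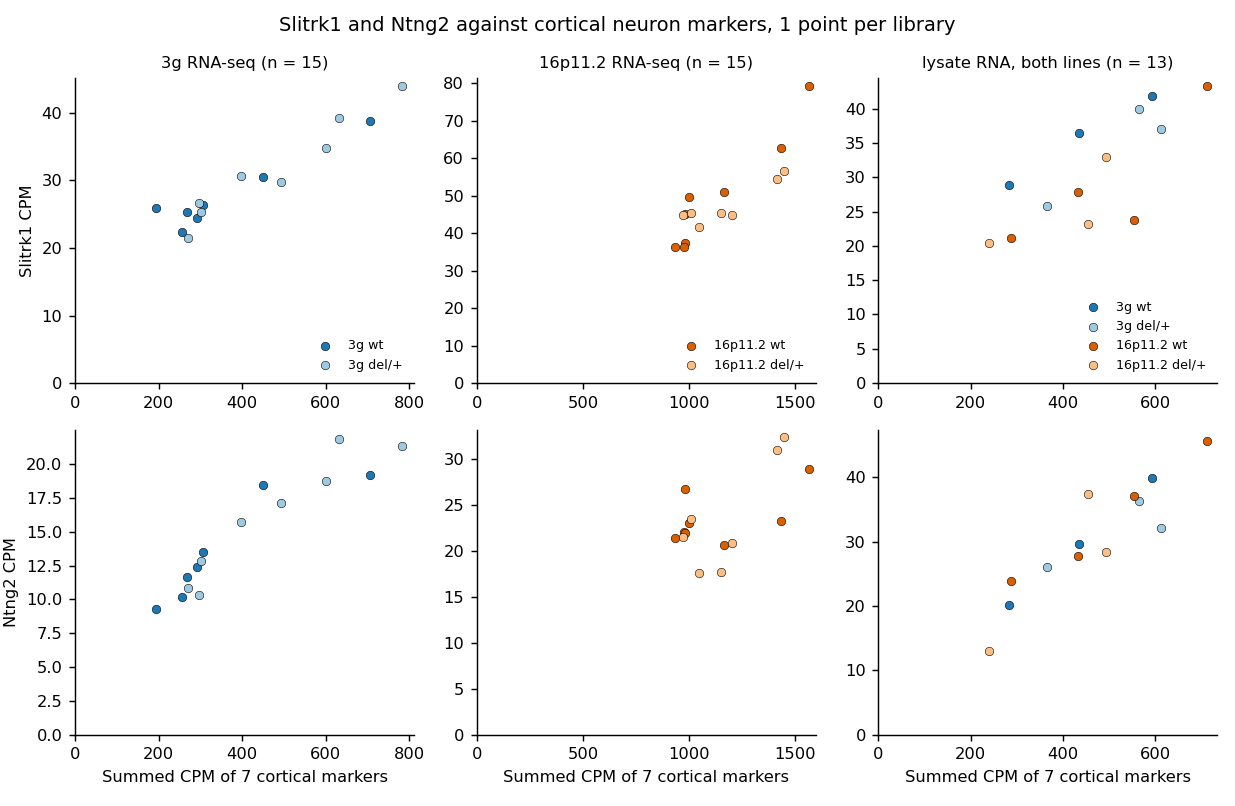
Level of Slitrk1 and Ntng2 in CPM against the summed CPM of 7 cortical neuron markers, 1 point per library, for RNA-seq of each line (15 libraries each) and lysate RNA (13), both axes from 0. Slitrk1 rises with the sum in all 3 sets (r 0.924, 0.872 and 0.748), and Ntng2 in the 3g line and the lysates (r 0.956 and 0.915).

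Sex made no called difference in wt mice, with 0 of the 38 called in the 3g line (0.0308% of genes) and 0 in the 16p11.2 line (0.0336%), and with 3 and 2 at an unadjusted p under 0.05 by edgeR (background 2.85% and 5%) and 0 by DESeq2. Ptprd was higher in 3g females than in males by 0.30 ± 0.09 (adjusted p = 0.948, edgeR). Cntn6 was higher in 16p11.2 females by 0.38 ± 0.10 (adjusted p = 0.775), and Ntng1 differed by 0.21 ± 0.09 in the 3g line and by -0.34 ± 0.14 in the 16p11.2 line (adjusted p = 0.948 and 0.937).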

How the data were processed

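The authors deposited whole-number counts per gene with no normalization. The RNA-seq counts came from the bcbio-nextgen pipeline, with HTSeq and mm10 named in the submitters' processing notes, and the lysate RNA and footprint counts from Bowtie2 and mm39. The counted region, read filters and ribosomal RNA removal of the latter are not given in the sources used here. The labels call the molecule polyA RNA and the methods of the study describe ribosomal RNA depletion. Columns were assigned to samples by label, and no libraries were identical. The members and lists were chosen with earlier results of these data known.

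Counts were filtered (filterByExpr), normalized (TMM) and tested in edgeR 4.0.16 (R 4.3.3) by the quasi-likelihood test, with Benjamini-Hochberg adjustment over all genes tested and a threshold of 0.05. Errors beside fold changes are standard errors. CPM of single libraries use TMM over all libraries of the same kind, and footprint ratios use TMM over 26 libraries. The scripts were tested on simulated data. Named genes were those past the threshold (the 5 with the greatest fold change in each direction where over 10 passed), otherwise the 3 with the smallest unadjusted p, and for footprints per lysate RNA the 5 highest and 5 lowest. Other genes were named after their values were seen. Positions are from RefSeq on GRCm38.p6 and were matched by symbol for all 38. Footprint ratios were paired by animal, since the labels say that both libraries came from 1 lysate. The main tests of footprints per lysate RNA and of translational efficiency held no term for the animal. It entered only as the replicate block. The alternatives were DESeq2 1.42.0, another size factor (RLE), no filter, all libraries of a line in 1 fit, a replicate block, and leaving out each library. With 4 against 4 animals the smallest exact permutation p is 0.0286. Replicates are samples that the labels number separately. Summed markers of neuron and glial types, endothelium and choroid plexus were used beside results. The 54 other adhesion genes had 0 called in all genotype, sex, male line and lysate line comparisons.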

Additional observations from a re-analysis of the deposited data

Results flagged for a closer look

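In 8 of 119 sets of 4 libraries tested for the named genes, 1 library lay far from the other 3, where chance gives about 1 in 20, and over all 38 genes it was 29 of 380 sets. Celsr3 was at 110 CPM in 3g wt male 17 (others 223 to 242) and at 253 CPM in 16p11.2 del/+ male 4 (others 98.4 to 118), the libraries that lay near the other line. Slitrk1 was at 38.9 CPM in 3g wt female 39 (others 24.4 to 26.4), whose cortical marker sum of 706 CPM was the highest of its group. Ptprs footprints were at 1828 CPM in 1 animal of the 16p11.2 wt group (others 1039 to 1082). Cntnap4 was at 9.39 CPM in 3g wt male 26 (others 14.0 to 14.7). Cntn5 was at 11.23 CPM in 3g wt male 34 (others 8.61 to 8.93) and at 9.79 CPM in 3g del/+ male 25 (others 11.8 to 12.1). Il1rapl1 was at 15.5 CPM in 3g del/+ female 37 (others 18.2 to 18.7). The causes were not tested.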

How the results depend on the processing

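No named gene changed direction under any alternative run. Some medians over the members, all between -0.05 and 0.04 and with no test, crossed 0. In all, 247 alternative counts of called genes stayed within 1.5 times the reported one while 10 did not. Genotype counts of 0 became 2 in 3g females with DESeq2 and with no filter, 1 in 3g footprints with no filter (Lrrtm4), 1 in 3g translational efficiency with DESeq2 (Nlgn1), and 1 in the female genotype by line interaction with DESeq2 (Celsr1). Leaving out single libraries gave 0 to 2 in 3g females, beside 1 to 175 over all genes. Over all genes, alternatives that kept every library called 1 to 158 in 3g females and 1 to 127 in 3g footprints. They called 0 to 26 in 3g translational efficiency and 25 to 53 in the female genotype by line interaction. In wt males the line contrast gave 5 with DESeq2, 2 with no filter and 0 to 15 without single libraries, 15 being without 3g wt male 17, and in wt lysates 1 with DESeq2. For footprints per lysate RNA it gave 16 to 20 in the 3g line and 19 to 22 in the 16p11.2 line. With the animal as a replicate block the counts were 19 and 26, and it changed no other call. In 16p11.2 RNA-seq the shared replicate numbers did not pair the libraries (correlations of -0.381 to 0.334), and with that block 0 genes were called in each sex and in the interaction. Leaving out both libraries that stood apart, chosen after seeing the data, gave 0 in the male genotype by line interaction. Footprint depth limits Celsr1, Cntn5, Cntn6, Cntnap4, Lrrtm1, Lrrtm4, Il1rapl1, Flrt3, Ntng1 and Ntng2, whose lowest library held 1 to 6 footprints. The cause of each change was not tested.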
